A study of Mus musculus with 461 samples.

Results

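The Hox genes encode homeodomain transcription factors that lie in clusters, and their expression along the body axis gives the cells of the trunk, limb and hindbrain their position. All rows of the expression table whose symbol is Hox followed by a cluster letter and a number were taken, which gave 39 of 31673 genes, and no measured value entered that choice. The values below cover 38 of them. The 39 divide into 11 genes of the HoxA cluster on chromosome 6, 10 of HoxB on chromosome 11, 9 of HoxC on chromosome 15 and 9 of HoxD on chromosome 2. The study followed mouse embryonic fibroblasts (MEFs) carrying the OG2 transgene, a green fluorescent reporter of Pou5f1, through a reprogramming course that the titles call 7F, and sequenced the RNA of 461 single cells captured on the Fluidigm C1 instrument at days 0, 1, 3, 4, 5 and 7. Every cell is labelled with the tissue "OG2 transgenic mouse embryonic fibroblasts (MEFs)" and a mixed strain of 129SVJ, C57B6 and CBA. Fibroblasts were kept in medium with 10% FBS and reprogramming cells in iCD1 medium, so the day 0 cells differ from the later ones in medium as well as in time. The labels do not name the 7F factors, do not say whether they were already present at day 0, and give neither the embryos the cells came from nor what the title prefixes b1, b2 and b3 stand for.

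Mammalian Hox genes are numbered by paralogue group, from 1 at the 3′ end of a cluster to 13 at its 5′ end. Genes of low number are activated early and reach far towards the head, those of high number are activated late and act in the posterior trunk, the limb and the genital bud. Fibroblasts keep a stable Hox pattern that records the site of the body they were taken from, held by Polycomb and trithorax chromatin complexes, whereas in pluripotent stem cells the clusters are largely silent. Hoxb1 is among the Hox genes that respond first to retinoic acid in embryonic stem cells, through elements close to the gene, and the Cdx factors act upstream of the middle and posterior members. TALE homeodomain proteins of the Pbx and Meis families bind DNA together with Hox proteins.

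Promoter sequences are shown for 3 genes called at day 7 against day 0, Hoxb1, which was higher, and Hoxd10 and Hoxd13, which were lower. They are the 250 bases upstream of the annotated start in RefSeq, build GRCm38.p6, on the plus strand, at chr11:96365508-96365757, chr2:74691641-74691890 and chr2:74667975-74668224 in that order. Capitals mark the match to TGATNNAT, a composite Pbx and Hox binding motif.
Hoxb1: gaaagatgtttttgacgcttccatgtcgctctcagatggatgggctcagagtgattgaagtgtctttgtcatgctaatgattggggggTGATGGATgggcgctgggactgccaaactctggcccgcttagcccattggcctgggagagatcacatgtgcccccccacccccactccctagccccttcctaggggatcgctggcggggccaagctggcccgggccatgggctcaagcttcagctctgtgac
Hoxd10: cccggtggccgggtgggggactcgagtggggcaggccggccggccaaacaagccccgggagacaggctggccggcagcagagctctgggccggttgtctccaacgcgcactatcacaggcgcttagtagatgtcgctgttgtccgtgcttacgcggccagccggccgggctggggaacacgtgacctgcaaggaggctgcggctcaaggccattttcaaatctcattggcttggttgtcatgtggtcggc
Hoxd13: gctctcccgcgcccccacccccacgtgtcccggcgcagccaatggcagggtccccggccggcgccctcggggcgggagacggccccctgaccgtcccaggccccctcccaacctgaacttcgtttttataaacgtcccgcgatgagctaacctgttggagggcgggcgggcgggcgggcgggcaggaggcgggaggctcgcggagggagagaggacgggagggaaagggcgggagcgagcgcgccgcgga
The Hoxb1 sequence holds 7 CpG dinucleotides, that of Hoxd10 20 and that of Hoxd13 31. Across the 24 promoters that RefSeq gave for 22 of the 38 genes, the median was 12.5 CpG with a range of 2 to 35, against a median of 6 over 32851 promoters of the same length. On both strands, TGATNNAT was found in 4 of the 24 Hox promoters (16.7%), those of Hoxa2, Hoxb1, Hoxb8 and 1 of the Hoxd11 promoters, and in 7.68% of all promoters. In Hoxb1 it lies 162 to 155 bases upstream of the start. The octamer ATGCAAAT, bound by Pou5f1, was found in 0 of the 24 and in 1.6% of all promoters. These matches describe letters in a window and not occupied sites, and no gene was called from them.

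The cells of 1 day and prefix were treated as a set, and 8 sets with 20 to 79 cells entered the comparisons. Days 0 and 3 have 2 sets each, from prefixes b1 and b2 (20 and 54 cells at day 0, 61 and 58 at day 3). Days 1, 5 and 7 have 1 set of prefix b2 each (58, 79 and 65 cells), and day 4 has 1 set of 59 cells from prefix b3 alone, so that day 4 and prefix b3 cannot be told apart. With M standing for a mega-count, cells held 0.319 to 6.999 M assigned counts with a median of 2.503 M, and the day 4 set was the shallowest with a median of 0.983 M. The labelled cell type was checked on markers. In CPM, counts scaled to the depth of the set, the 16 fibroblast markers summed to 6235 and 6068 in the b1 and b2 day 0 sets and to 970 at day 7, with S100a4 at 0 there, and of 10 pluripotency markers 7 and 6 were at 0 in the day 0 sets while their sum reached 4424 CPM at day 7. Pou5f1 stood at 0.0539 and 0.0132 CPM at day 0 and 86.1 at day 7. Col1a1 stood at 1315 and 1071 CPM at day 0 and 41.3 at day 7. Contractile markers fell from 2601 and 7333 CPM at day 0 to 121 at day 7. The part of the changing mixture of cells in the Hox values was not tested.

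At day 0 the fibroblasts held transcripts of middle and posterior Hox genes from all 4 clusters. In mean TPM, a scale per transcript length on which genes can be compared, Hoxa7 was highest with 65.4 in the b1 set and 30 in the b2 set. Hoxc8, a gene of the thoracic region, followed with 34.7 and 8.83 TPM. Hoxd10 had 7.63 and 27.8 TPM, Hoxd8 7.47 and 16.4, Hoxa9 14.9 and 7.73, Hoxa10 6.34 and 13.9, and Hoxa5 14.9 and 3.52. Hoxc5, Hoxc6 and Hoxc10 lay between 6.98 and 9.91 TPM in both sets. The order below Hoxa7 was not the same in both sets, since Hoxa5, Hoxa9 and Hoxc8 were higher in b1 and Hoxa10, Hoxd8 and Hoxd10 in b2. HoxA made up 50.9% of the summed Hox TPM in b1 and 33.8% in b2, and HoxD 11.2% and 31.5%. Paralogue groups 5 to 8 held 69.4% and 50%.

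**Figure D1:**
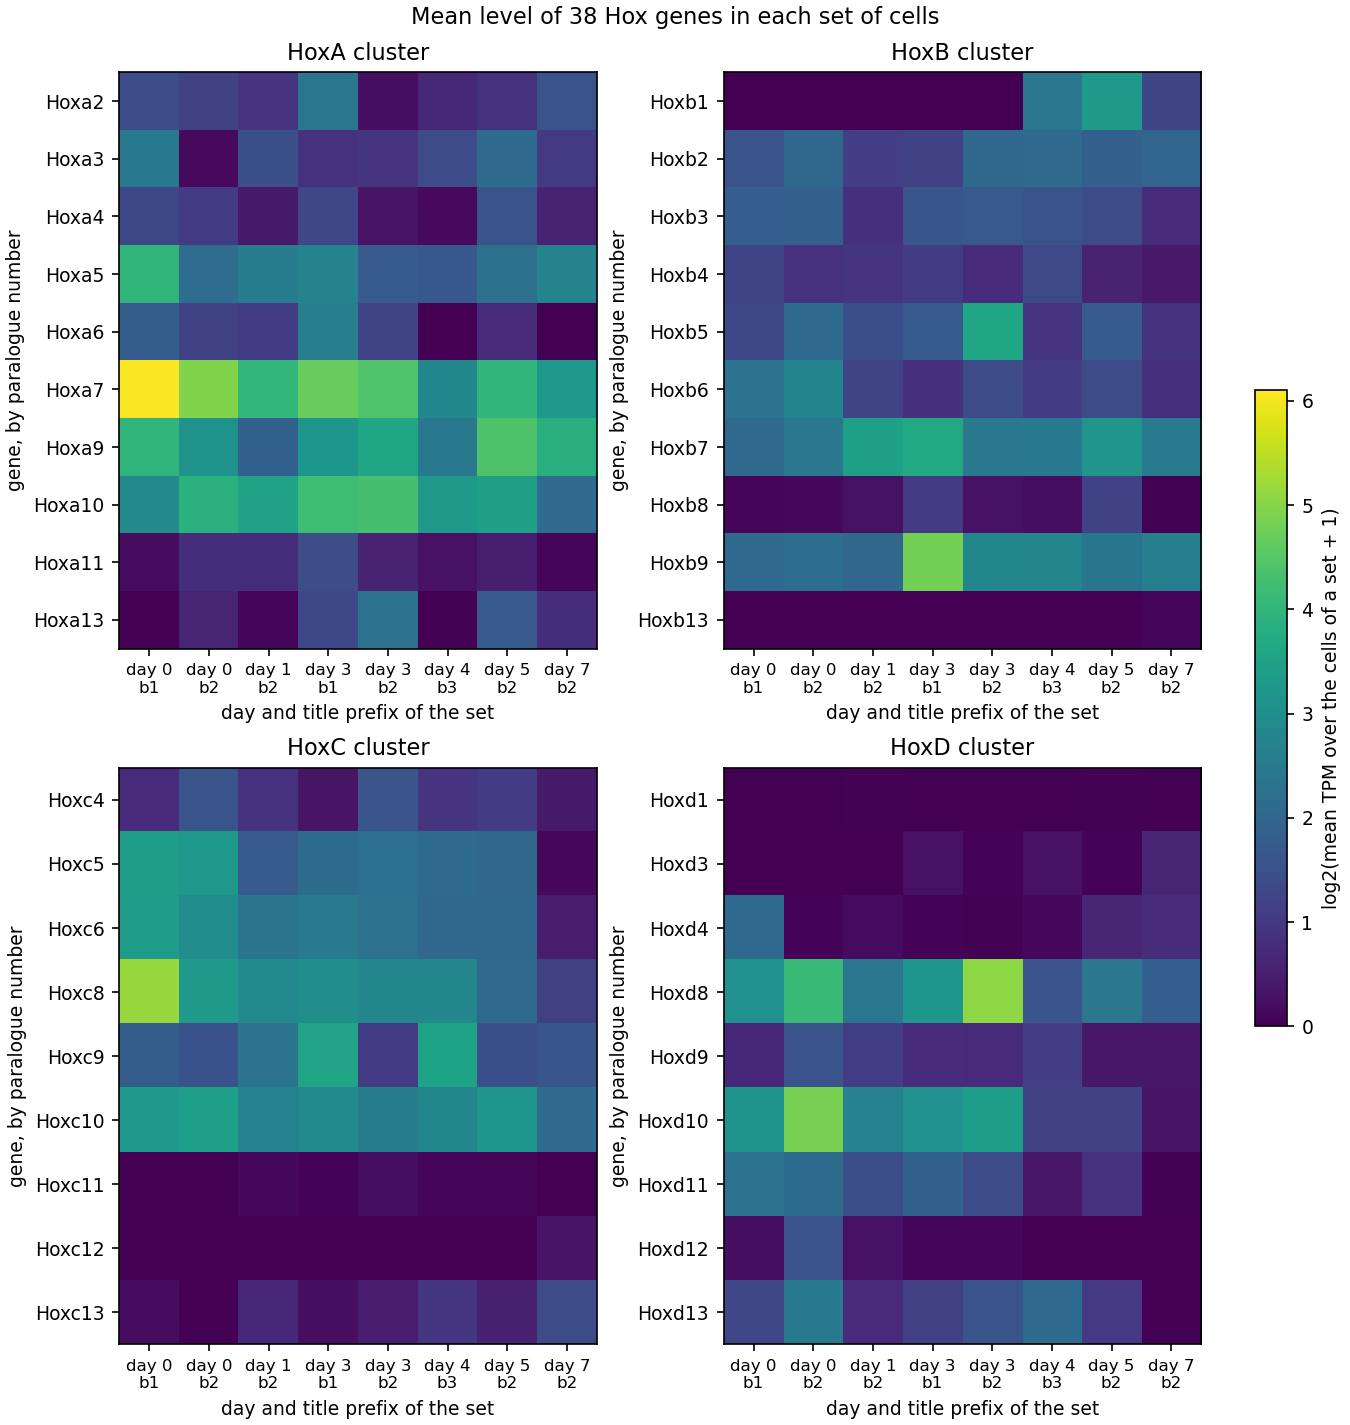
Heat map of log2(mean TPM + 1) for the 38 Hox genes, with a panel for each cluster, genes ordered by paralogue number and a column for each of the 8 sets in order of day. Brighter cells are higher. Hoxa7 is the brightest gene at day 0 (65.4 and 30 TPM), Hoxb1 is at or near 0 until day 4, and the HoxD panel is darker at days 4 to 7.

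Several members were at or near 0 in the 8 sets compared. There, Hoxd1 did not exceed 0.0321 CPM, Hoxb13 0.0811 and Hoxc11 0.232, and Hoxc12 was at 0 outside day 7, where it had 0.1 CPM. Hoxd1 did not pass the filter on low counts, so 37 of the 38 genes were tested. Hoxb1 had 0 counts at day 0 and passed the filter through the days on which it was detected, and with no filter on low counts it was called in the same comparisons.

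Against day 0, most Hox genes did not pass the test, and those that did were a small group. Calls are from edgeR's quasi-likelihood test on set sums, with an adjusted p under 0.05 after Benjamini-Hochberg adjustment over 22378 genes. All comparisons with day 0 use the same 2 day 0 sets. At day 1, 0 of the 37 tested genes were called, where 0.934% of all genes were called higher and 0.25% lower. There, 0 Hox genes had an unadjusted p under 0.05 and DESeq2 called 0. At day 3, 0 were called, against 2.1% of all genes higher and 1.04% lower. There, 2 Hox genes had an unadjusted p under 0.05, beside 2591 of all 22378 genes. DESeq2 called Hoxc5 and Hoxd4 at day 3, beside 1640 of its 25691 genes. At day 4, Hoxb1 was called higher and Hoxa7 lower, against 2.07% and 0.965% of all genes. At day 5, Hoxb1 was called higher and 0 lower, against 2.56% and 2.18%. At day 7, Hoxb1 was called higher and Hoxc5, Hoxc8, Hoxd10 and Hoxd13 lower, against 3.55% and 3.05%. Between days 5 and 3, Hoxb1 was called higher and 0 lower, against 0.643% and 1.07%. Calls of 1 gene in a list of 37 are too few to be set apart from these shares. DESeq2 called 5 Hox genes at day 4, 4 at day 5, 12 at day 7 and 1 between days 5 and 3. Over its 25691 genes it called 1279, 2205, 2959 and 1025 in the same order. Its day 7 calls included Hoxc13 (adjusted p = 0.034), which was higher, with 0.108 and 0.0198 CPM at day 0 and 2.78 at day 7. EdgeR did not call Hoxc13 at day 7 (adjusted p = 0.379). With limma on log2(TPM + 1) after a filter on low TPM, 0 Hox genes were called at days 4, 5 and 7 or between days 5 and 3. That fit called 0 of all 17892 genes in each of these comparisons, so it does not set the Hox genes apart. EdgeR with the b1 sets of 5 and 2 cells added to days 5 and 7 also called 0 Hox genes. It called 33, 158, 352 and 12 of 22314 genes in the same order. With no filter, limma called 1 Hox gene at days 4 and 5 each, 3 at day 7 and 1 between days 5 and 3. It then called 166, 542, 1006 and 433 of 25754 genes in the same order.

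Hoxb1, an early hindbrain gene of paralogue group 1, was called higher at days 4, 5 and 7. It had 0 counts in both day 0 sets and at day 1, 2 counts in all 119 cells of day 3, and 6.04 CPM at day 4, 14.8 at day 5 and 1.41 at day 7. It was detected above this level from day 4 on, and day 7 was lower than days 4 and 5. Against the limit of 3 counts over the day 0 sets, it was at least 416.2-fold higher at day 4 (adjusted p = 0.00534), at least 1019-fold at day 5 (0.00125) and at least 97.06-fold at day 7 (0.0161). Day 5 against day 3 gave 2758 counts against 2, a ratio of 2528 with an exact interval of 699 to 20882 that covers counting error only (adjusted p = 0.00798). Leaving out the b2 day 0 set ended the day 4 call (adjusted p = 0.0621), leaving out any of the 4 sets of days 0 and 3 ended the day 7 call (0.0522 to 0.0972), and leaving out a day 3 set ended the call between days 5 and 3 (0.374 and 0.544). The day 5 call held in all 4 cases, with adjusted p from 0.00704 to 0.0214. Over all alternatives the adjusted p ran from 3.48e-06 to 0.463 at day 4, from 7.18e-08 to 0.215 at day 5, from 0.000126 to 0.269 at day 7 and from 1.54e-07 to 0.669 between days 5 and 3. Cells with a TPM of at least 1 numbered 0 of 20 and 0 of 54 at day 0, 0 of 119 at day 3, 12 of 59 at day 4 (20.3%, exact 95% interval 11 to 32.8), 12 of 79 at day 5 (15.2%, 8.1 to 25) and 4 of 65 at day 7 (6.15%, 1.7 to 15). At day 0 the exact interval for 0 of 54 cells reached 6.6%. The cell with most Hoxb1 held 42.1% of its counts at day 4, 43.7% at day 5 and 39.3% at day 7.

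**Figure D2:**
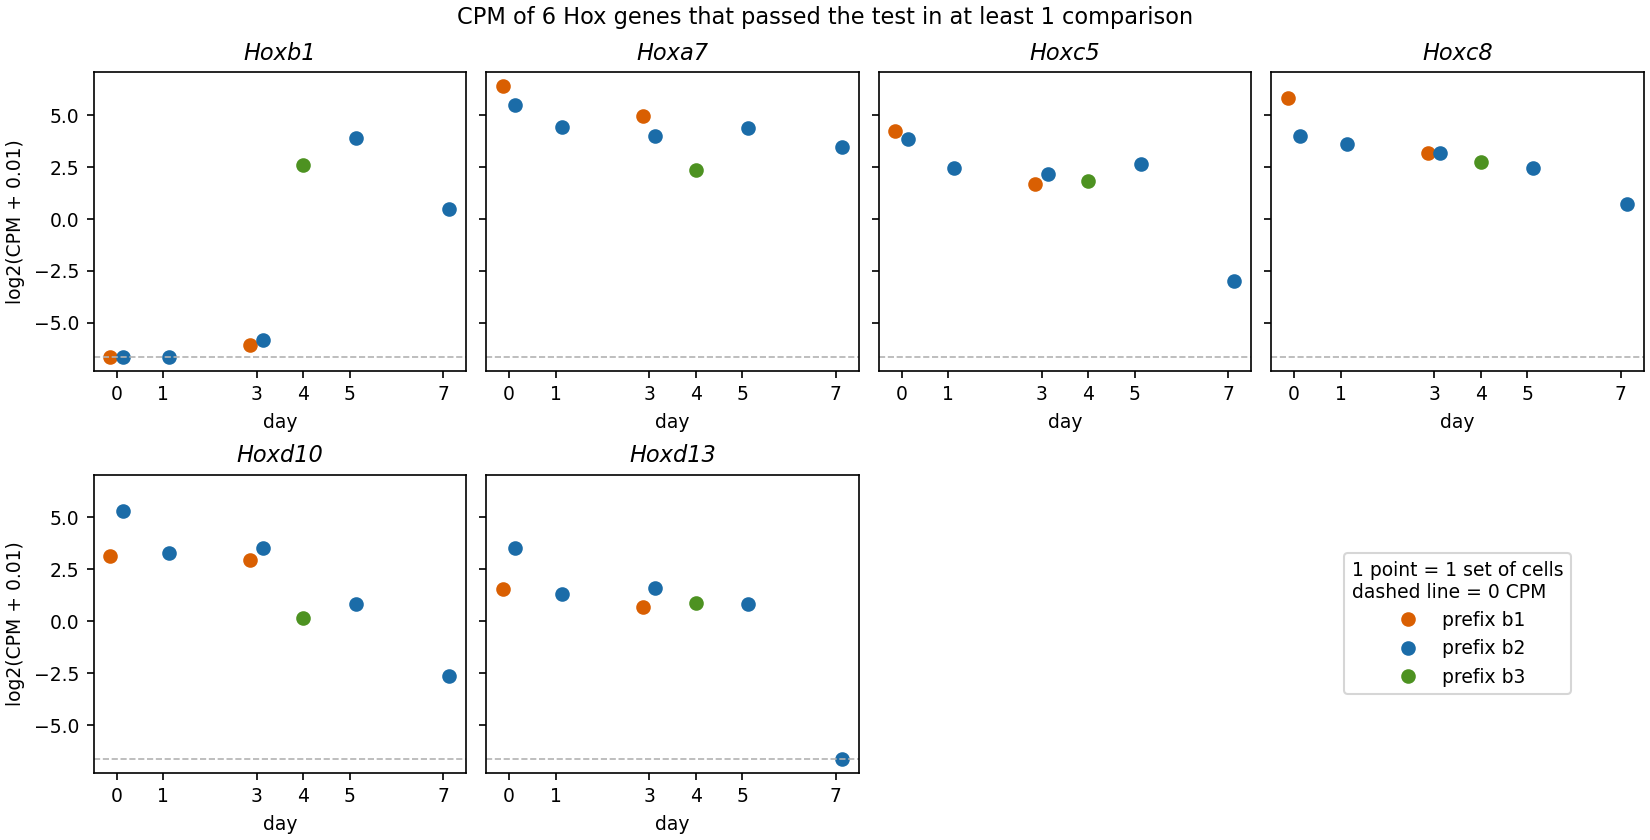
Level of 6 called Hox genes as log2(CPM + 0.01) in each of the 8 sets against day, with a point for each set marked by prefix and a dashed line at 0 CPM. Hoxb1 sits low up to day 3 and high from day 4, Hoxd10 and Hoxd13 go down to 0.153 and 0 CPM at day 7, and the 2 day 0 sets of Hoxc8 and Hoxd10 lie apart.

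Hoxa7, the most abundant member at day 0 and a gene of the thoracic trunk, was lower in every later set than in both day 0 sets. It had 85.2 and 45.6 CPM at day 0, 21.5 at day 1, 31.1 and 16.1 at day 3, 5.17 at day 4, 20.7 at day 5 and 11 at day 7. From a day 0 mean of 65.4 ± 28 CPM (SD, n = 2), day 4 was lower by a log2 fold change of -3.66 ± 0.99 (adjusted p = 0.0108). The day 7 value of -2.57 ± 0.93 was not called (0.0747). Without the b1 day 0 set the day 4 value was -3.14 and no longer called (adjusted p = 0.0576; range over all alternatives 0.000105 to 1). The cells with a TPM of at least 1 numbered 13 of 20 and 26 of 54 at day 0 (65% and 48.1%), 38 of 58 at day 1 (65.5%), 28 of 61 and 18 of 58 at day 3, 20 of 59 at day 4, 25 of 79 at day 5 and 13 of 65 at day 7 (20%). The day 1 share was above that of the b2 day 0 set, while the CPM was lower. At day 0, 48.9% of the b1 counts and 26.5% of the b2 counts came from 1 cell each.

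In HoxC, the genes lower at day 7 were Hoxc5 and Hoxc8, which pattern the neck and thorax. Hoxc8 had 57.4 and 16 CPM at day 0, 12.1 at day 1, 9.18 in both day 3 sets, 6.68 at day 4, 5.39 at day 5 and 1.64 at day 7. The later sets all lie below both day 0 sets, which themselves differ widely (36.7 ± 29.3 CPM, SD, n = 2). Its log2 fold change at day 7 was -4.48 ± 1.42 (adjusted p = 0.0286), and -3.28 (0.259) without the b1 day 0 set, -5.13 (0.00364) without the b2 day 0 set, and not called without either day 3 set (0.0763 and 0.0749). Over all alternatives its adjusted p ran from 4.17e-05 to 0.36. Hoxc5, a cervical and upper thoracic gene, had 18.9 and 14.5 CPM at day 0, 5.51 at day 1, 3.21 and 4.54 at day 3, 3.5 at day 4, 6.33 at day 5 and 0.115 at day 7. It was below both day 0 sets from day 1 on and lowest at day 7. From a day 0 mean of 16.7 ± 3.14 CPM (SD, n = 2), its log2 fold change was -7.18 ± 2.25 (adjusted p = 0.0261), with an adjusted p of 0.04 and 0.0163 without the b1 and b2 day 0 sets and 0.0719 and 0.0737 without a day 3 set. Of the Hoxc5 counts at day 0, 89% of b1 and 50.6% of b2 came from 1 cell each, and without the highest cell of every gene in each set the day 7 call was lost (adjusted p = 0.0965; range over all alternatives 1.11e-13 to 0.195). Hoxc6, which shares exons with Hoxc4 and Hoxc5 transcripts so that counts can be split among them, had 10.8 and 8.34 CPM at day 0 and 0.320 at day 7, a log2 fold change of -4.90 ± 2.36 that was not called (0.26; DESeq2 adjusted p = 7.14e-06). Hoxc10, a lumbar gene, had 11.7 and 15.8 CPM at day 0, 12.3 at day 5 and 3.69 at day 7, and was not called (-1.90 ± 1.45, 0.584).

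In HoxD, the posterior members Hoxd10 and Hoxd13 were lower at day 7. Hoxd10, which patterns the lumbar spine and the limb, had 8.73 and 39.2 CPM at day 0, 9.90 at day 1, 7.77 and 11.4 at day 3, 1.09 at day 4, 1.74 at day 5 and 0.153 at day 7. Days 0, 1 and 3 overlap, and days 4, 5 and 7 lie below them. Its log2 fold change at day 7 was -7.29 ± 1.95 (adjusted p = 0.0054) from a day 0 mean of 24 ± 21.6 CPM (SD, n = 2). It was -8.00 without the b1 day 0 set (adjusted p = 0.000531) and -5.83 without the b2 day 0 set, which ended the call (0.0635; range over all alternatives 6.53e-10 to 0.5). The cell with most Hoxd10 held 88.1% of the b1 and 53.6% of the b2 day 0 counts, and detection went from 3 of 20 and 11 of 54 cells to 1 of 65. Hoxd13, the digit and genital gene at the 5′ end of the cluster, had 2.96 and 11.7 CPM at day 0, 2.47 at day 1, 1.58 and 3.05 at day 3, 1.84 at day 4, 1.75 at day 5 and 0 at day 7. In CPM, day 7 alone stands apart from the rest, but the day 4 value rests on 1 cell. With 0 counts at day 7 against 1937 at day 0, it was at least 654.2-fold lower against a limit of 3 counts (adjusted p = 0.0242). The fitted log2 value, which for a gene at 0 depends on the prior count, was -13.02, and -13.82 and -11.70 without the b1 and b2 day 0 sets. The call was lost without the b2 day 0 set (adjusted p = 0.0633) and without either day 3 set (0.0783 and 0.0908), with a range over all alternatives of 3.58e-06 to 0.393. At day 0, 69.1% of the b1 and 57.4% of the b2 counts came from 1 cell each. Hoxd13 was detected in 2 of 20 and 7 of 54 day 0 cells and in 0 of 65 at day 7, for which the exact interval reaches 5.52%.

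The other HoxD genes of number 8 and above did not pass the test at day 7. Hoxd9, next to Hoxd10, had 1.11 and 3.89 CPM at day 0 and 0.577 at day 7 (-2.12 ± 2.90 on the log2 scale, adjusted p = 0.834; DESeq2 0.415). Hoxd11 had 10.8 and 10.9 CPM at day 0 and 0.0764 at day 7 (log2 fold change -7.14 ± 2.68, adjusted p = 0.0935; DESeq2 1.35e-09). Hoxd8, the trunk gene of the cluster, had 12.3 and 33.2 CPM at day 0, 46.1 in the b2 day 3 set and 2.16 at day 7 (-3.40 ± 1.29, 0.0983; DESeq2 0.00744). Without the b1 day 0 set the Hoxd8 value was -3.95 and called (adjusted p = 0.021), and without the b2 day 0 set -2.51 (0.253). Hoxd12 had 0.395 and 4.86 CPM at day 0, or 757 counts, and 0 counts at day 4 and day 7, at least 255.7-fold lower at day 7 and not called (0.258; DESeq2 0.00439). Cells with a HoxD transcript of any member at a TPM of at least 1 numbered 9 of 20 and 27 of 54 at day 0, 22 of 59 at day 4 (37.3%), 19 of 79 at day 5 (24.1%, exact 95% interval 15.1 to 35) and 11 of 65 at day 7 (16.9%, 8.76 to 28.3). The mean summed HoxD TPM was 24.6 and 56.2 at day 0, 46.4 in the b2 day 3 set and 4.43 at day 7.

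Several members of HoxA and HoxB with at least 5 CPM in both day 0 sets were called in no comparison. Hoxa9, a posterior gene also used in blood stem cells, had 27.9 and 10.4 CPM at day 0, 24.5 at day 5 and 15 at day 7, with a log2 fold change at day 7 of -0.36 ± 1.14. Hoxb9 had 5.87 CPM in both day 0 sets, 35 in the b1 day 3 set and 7.12 at day 7 (0.28 ± 1.25). In the b1 day 3 set, 32.1% of the Hoxb9 counts came from 1 cell. Hoxa5, which acts in the lung and the cervical spine, had 22.4 and 6.03 CPM at day 0 and 7.36 at day 7 (-0.95 ± 1.5). Hoxa10, a gene of the lumbar spine and the uterus, had 6.36 and 16 CPM at day 0, 19.6 and 19.1 at day 3 and 2.88 at day 7 (-1.96 ± 1.30), and Hoxb3 5.41 and 7.28 CPM at day 0 and 1.63 at day 7 (-1.96 ± 2.14). The standard errors of 1.14 to 2.14 on the log2 scale leave changes of that size undetectable, so these values do not show that the genes were constant. Hoxa9 had 13.1 TPM at day 7, above Hoxa7 with 8.57, Hoxa5 with 5.61 and Hoxb9 with 5.11. At day 4 Hoxc9 had 10.7 TPM, above Hoxa10 with 8.67, and the order at day 5 ran through Hoxa9 (19.9), Hoxa7 (15.1) and Hoxa10 (10.3). Days 4, 5 and 7 have 1 set each, so neighbours in these orders cannot be separated.

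By cluster, the tested HoxD genes had the lowest median change at day 7. The median log2 fold change of the 37 tested Hox genes at day 7 was -1.96, also with the genes at 0 counts set to their bound, against 0 over all 22378 genes, and 29 of the 37 were below 0 against 10939 of all genes. The medians were -5.27 for HoxD, where 7 of 8 tested genes were below 0, -2.62 for HoxC (-1.90 with bounds), -1.91 for HoxA and -0.92 for HoxB. At day 4 they were -3.63 for HoxD, -2.44 for HoxA, -0.87 for HoxC and -0.04 for HoxB. Over all tested Hox genes the medians were -0.79 at day 1 (-0.64 with bounds), -0.72 at day 3, -1.38 at day 4 and -0.43 at day 5, against 0.11 for all genes at day 3 and 0 on the other days. These medians describe lists whose members share enhancers and cells, and no test was run on them.

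By paralogue number, groups 5 to 8 had the lowest median. At day 7 the 11 tested genes of groups 5 to 8 were all below 0 with a median of -3.02, groups 2 to 4 had a median of -1.88 and groups 9 to 13 of -1.93 (-1.20 with bounds). The mean summed TPM of groups 5 to 8 was 152 and 89.1 at day 0, 52.1 at day 1, 74.9 and 87.7 at day 3, 29.6 at day 4, 46.6 at day 5 and 24.7 at day 7. That of groups 9 to 13 was 49.6 and 78 at day 0, 86.2 and 60.8 at day 3 and 30.3 at day 7, with overlap between days 0 and 3. Groups 2 to 4 stayed between 6.87 and 17.6 TPM in all 8 sets.

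Most cells of day 7 held few Hox transcripts, and a minority held many. The summed TPM of the 38 genes had a median over cells of 123 and 129 at day 0, 83.8 at day 1, 128 and 109 at day 3, 65.4 at day 4, 26.2 at day 5 and 9.67 at day 7, and a cell of day 5 still reached 1173. The set means fell less, from 220 and 178 at day 0 to 119 at day 5 and 65.7 at day 7. A set sum cannot tell fewer cells with a transcript from less RNA per cell, so the cells are given as well. The median number of Hox genes with a TPM of at least 1 was 8 and 5.5 per cell at day 0, 6 at day 1, 6 and 5 at day 3, 6 at day 4, 2 at day 5 and 1 at day 7. With each cell thinned to 300000 counts the medians were 6.5, 5, 6, 5, 5, 5, 2 and 1 in the same order. The cells with no Hox gene numbered 2 of 74 at day 0, 0 at days 1 and 3, 1 of 59 at day 4, 23 of 79 at day 5 and 22 of 65 at day 7, so 70.9% (exact 95% interval 59.6 to 80.6) and 66.2% (53.4 to 77.4) of the cells had a Hox transcript at days 5 and 7. At the other end, a day 5 cell held 20 of the 38 genes and a day 7 cell 15. Within sets, the number of genes had an r of -0.40 to 0.2 with the log10 depth of the cell.

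**Figure D3:**
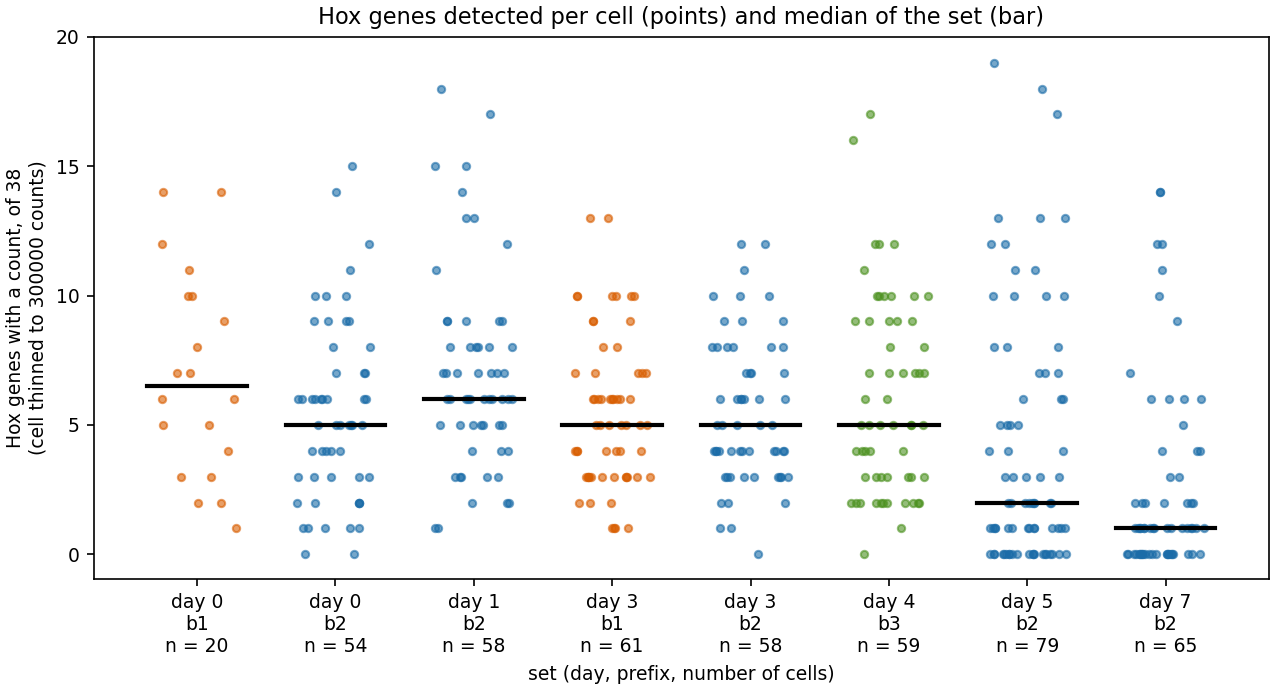
Number of the 38 Hox genes detected per cell after thinning to 300000 counts, with a point for each cell, a column for each of the 8 sets and a bar at the median. The medians lie at 5 to 6.5 up to day 4 and at 2 and 1 at days 5 and 7, where many cells sit at 0 while the highest cells reach 19 and 14.

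Across cells of days 5 and 7, the Hox sum and Pou5f1, the pluripotency factor whose reporter the cells carry, were negatively correlated, although most day 7 cells with a Hox transcript also held Pou5f1. The sum of the 37 Hox genes other than Hoxb1 had a Pearson r with Pou5f1 on the log2(TPM + 1) scale of -0.28 in the b2 day 3 set (58 cells), -0.05 at day 4 (59 cells), -0.73 at day 5 (79 cells) and -0.44 at day 7 (65 cells). Counting a TPM of at least 1 as present, in 79 cells of day 5, 27 had both, 29 Hox alone, 23 Pou5f1 alone and 0 neither. At day 7, 30 had both, 13 Hox alone, 21 Pou5f1 alone and 1 neither. With Dppa5a, another pluripotency gene, r was -0.64 at day 5 and -0.32 at day 7, and with Col1a1, a fibroblast collagen, 0.14 and 0.25. With Meis1, a Hox cofactor, it was 0.30 and 0.56, after 0.08 at day 4. Genes that are not cofactors were also positive at days 5 and 7. Stra6, the retinol uptake receptor, had 0.29 and 0.48, Col3a1 0.29 and 0.30, and Twist1 0.03 and 0.39. The cells of a set share a day and a prefix and differ in depth. The log10 depth had an r of 0.12 with the Hox sum and 0.04 with Pou5f1 at day 5, and of -0.23 and 0.10 at day 7.

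**Figure D4:**
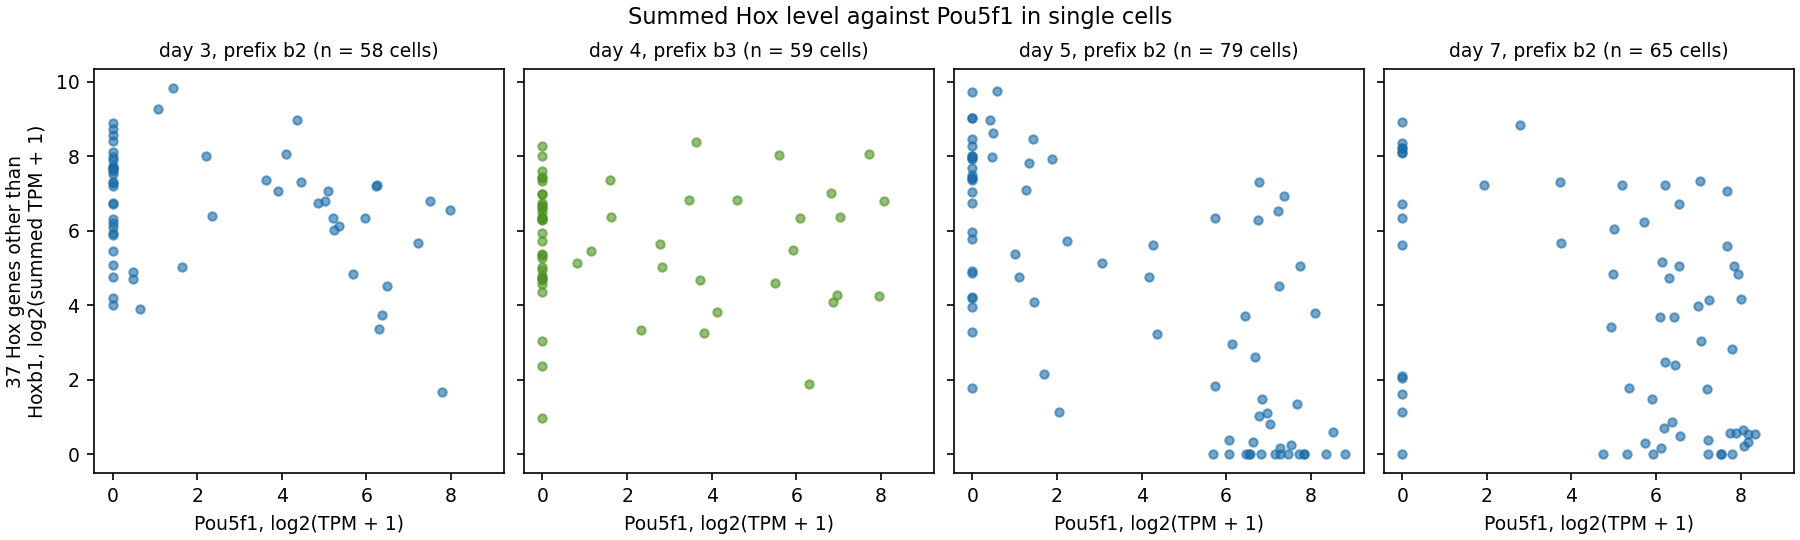
Summed TPM of the 37 Hox genes other than Hoxb1 against Pou5f1, both as log2(TPM + 1), with a point for each cell and a panel each for the b2 day 3, day 4, day 5 and day 7 sets. At day 5 the cells run from high Hox and no Pou5f1 to high Pou5f1 and no Hox (r of -0.73), at day 4 they show no slope (-0.05).

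Hoxb1 stood otherwise to Pou5f1 at day 4. There it had an r of 0.41 with Pou5f1, with 7 cells holding both, 5 Hoxb1 alone, 17 Pou5f1 alone and 30 neither. At day 5 r was -0.27 (4, 8, 46 and 21 cells in that order), and at day 7 it was -0.06 (3, 1, 48 and 13 cells). These values are descriptions over the cells of 1 set each, and their differences between days were not tested.

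Within single cells, Hox genes of the same cluster were correlated more than unrelated pairs. Among genes with a TPM of at least 1 in 20% or more of the cells of a set, the median r of pairs from the same cluster was 0.26 (29 pairs) in the b2 day 0 set, against 0.14 (10) for pairs of the same paralogue number and -0.02 (97) for the rest. At day 1 the medians were 0.24, 0.16 and 0.03, in the b1 day 3 set 0.2, 0.11 and 0.02, and at day 4 0.21, 0.15 and 0.06. In the b2 day 3 set the order differed, with 0.13 for the same cluster and 0.2 for the same number, and so did the single pairs of day 7, with 0.32 and 0.44 against 0.1 for the other pair. At day 5 all pairs were higher, with 0.41 (10 pairs), 0.33 (4) and 0.25 (22). The neighbours Hoxa9 and Hoxa10 had an r of 0.525 in the b2 day 0 set, 0.565 at day 1, 0.636 and 0.411 in the b1 and b2 day 3 sets and 0.762 at day 5, where 13 cells held both of 21 and 18. Hoxd10 and Hoxd11 had 0.658 in the b2 day 0 set, with 9 cells holding both of 11 and 11. In the same cells Hoxc5 and Hoxd10 had -0.251, and 0 cells held both. Pairs of a set share cells and depth, and neighbouring Hox genes can share exons or unstranded antisense reads, so the medians are not independent observations.

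**Figure D5:**
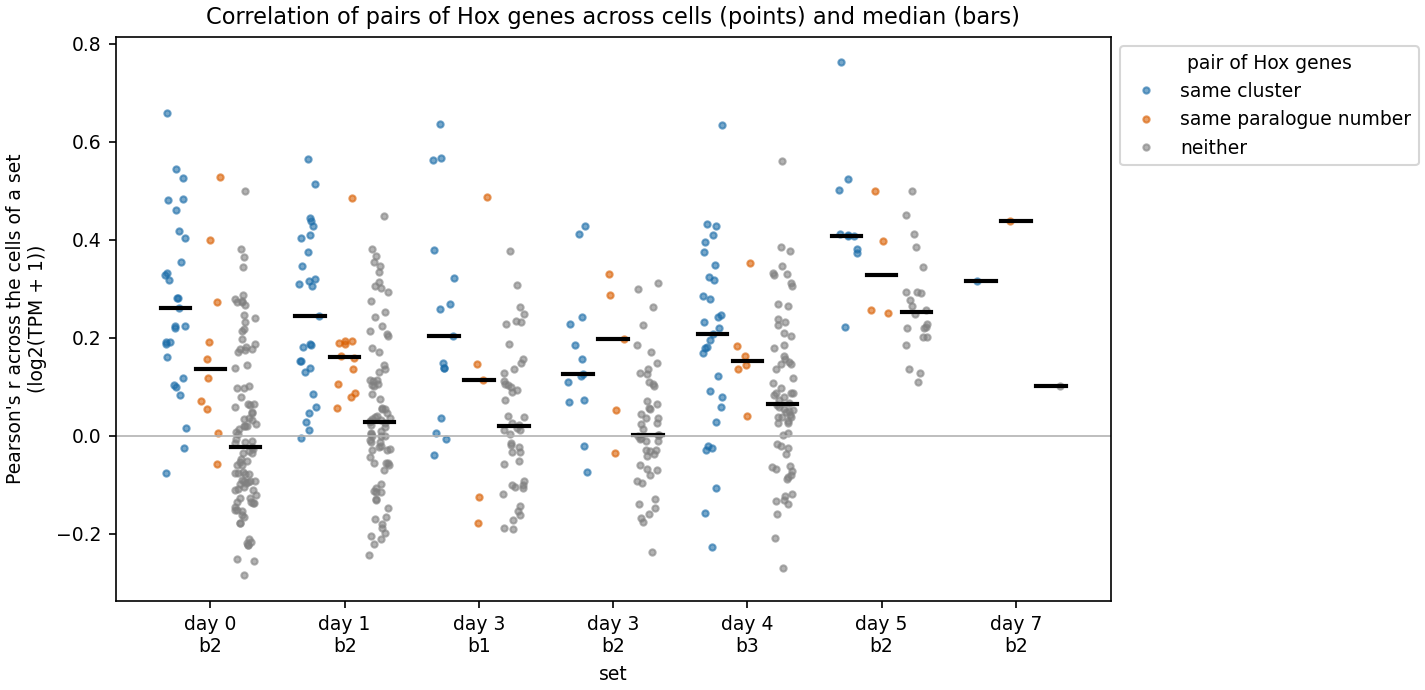
Pearson r across cells of log2(TPM + 1) for pairs of Hox genes, with a point for each pair, divided into pairs of the same cluster, pairs of the same paralogue number and other pairs, in each set, with a bar at the median. Same-cluster medians lie above those of other pairs in every set shown (0.26 against -0.02 in the b2 day 0 set), and the pairs range widely around them.

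Among the listed genes of the caudal family and of retinoic acid handling, Cdx4 had its highest set levels at days 4, 5 and 7, as Hoxb1 did. Cdx4, a caudal homeobox gene of the posterior embryo, had 0 CPM in both day 0 sets, at day 1 and in the b1 day 3 set, 0.0995 in the b2 day 3 set, 7.52 at day 4, 18.4 at day 5 and 1.47 at day 7. Its order of days is that of Hoxb1. Whether the same cells held both genes was not examined, and a link between them was not tested. It was at least 518.2-fold higher at day 4 (adjusted p = 0.00164). Like Hoxb1, it passed the filter on low counts through the days on which it was detected. Of 13 alternatives for this call, 8 kept it and 5 did not. Cdx1 was higher from day 3, and went from 0.305 and 0.291 CPM at day 0 to 6 and 13 at day 3 and 10.7 at day 4, where the log2 fold change was called (5.16, adjusted p = 0.024) but not when any of the 4 sets of days 0 and 3 was left out (0.0598 to 0.129). Stra6, the retinol uptake receptor, went from 0.341 and 1.98 CPM at day 0 to 44.6 at day 1 (5.24 ± 0.79, adjusted p = 4.46e-08) and 34.7 at day 7 (4.88 ± 0.78, 5.12e-08). The size of the Stra6 change was 4.5 at day 1 and 4.13 at day 7 without the b1 day 0 set, and 7.03 and 6.66 without b2. Cyp26b1, which degrades retinoic acid, had 23.2 and 79.9 CPM at day 0 and 0.282 at day 7 (-7.51 ± 1.38, 4.24e-06), and -8.14 and -6.36 without the b1 and b2 day 0 sets. Of the 16 listed genes of the caudal family and of retinoic acid handling, 1 was called higher at day 1, 3 at days 3, 4 and 5 each and 4 at day 7, and 1, 4 and 2 lower at days 4, 5 and 7, with a median at day 7 of -0.32 against 0 over all genes. Of all genes, 0.934% were higher at day 1, 2.1%, 2.07% and 2.56% at days 3, 4 and 5 and 3.55% at day 7, and 0.965%, 2.18% and 3.05% were lower at days 4, 5 and 7.

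The Polycomb and trithorax genes, whose products keep Hox genes off and on, included members called higher at days 5 and 7. Of 26 listed genes, 5 were called higher at day 7 and 0 lower, where 3.55% of all genes were higher and 3.05% lower, with a median log2 fold change of 0.97 against 0 over all genes. Suz12, a core subunit of Polycomb repressive complex 2, had 59 and 43.1 CPM at day 0 and 245 at day 7 (2.27 ± 0.50, adjusted p = 0.00033). Jarid2, an accessory subunit of the same complex, had 68.8 and 89.8 CPM at day 0 and 402 at day 7 (2.34 ± 0.49, 9.43e-05). Ash2l, a subunit of the trithorax-like methyltransferase complexes, had 79.4 and 33.1 CPM at day 0 and 396 at day 7 (2.82 ± 0.51, 2.21e-06), and 3.58 without the b1 day 0 set. Phc1, of Polycomb repressive complex 1, rose by 2.27 ± 0.65 (adjusted p = 0.011, and 0.0575 without the b1 day 0 set). The list was called 0 times at days 1 and 3, with 1 gene lower at day 4 (0.965% of all genes) and 3 higher at day 5 (2.56%). Before these calls, Suz12 already stood at 102 and 152 CPM in the b1 and b2 day 3 sets and 140 at day 4, above both day 0 sets. Jarid2 had 84.2 and 140 CPM at day 3 and 127 at day 4, and Ash2l 90.5 and 67.1 at day 3 and 74.3 at day 4. The TALE cofactors had 0 edgeR calls among 8 genes in every comparison, with 0 to 1 genes under an unadjusted p of 0.05 and 0 called by DESeq2. Meis1 stood at 117 and 50.2 CPM at day 0 and 82.5 at day 7.

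Some positional regulators outside the Hox clusters were lower at day 7. Of 29 genes of trunk and limb mesenchyme, 1 was lower at days 1 and 3 each, 2 at days 4 and 5 each and 5 at day 7, and 0 were higher on these days. Over all genes, 0.25%, 1.04%, 0.965%, 2.18% and 3.05% were lower at days 1, 3, 4, 5 and 7, and the single calls of days 1 and 3 are too few to be set apart from these shares. The median log2 fold change of the list at day 7 was -3.59, against 0 over all genes and beside -1.96 for the tested Hox genes. Prrx1, a homeobox gene of limb mesenchyme, had 310 and 375 CPM at day 0, 112 and 116 at day 3, 15.2 at day 5 and 23.1 at day 7 (-3.89 ± 0.63, adjusted p = 8.94e-08). Tbx15, which patterns the limb and the skin of the back, had 13.2 and 56.3 CPM at day 0 and 0.840 at day 7 (-5.37 ± 1.23, 0.000577; -6.07 and -3.97 without the b1 and b2 day 0 sets). Lhx9, a limb and gonad gene, had 8.5 and 50.7 CPM at day 0, or 8140 counts, and 0 counts at day 7, at least 2749-fold lower (3.71e-05). Its fitted log2 value was -15.03, and -15.93 and -13.22 without the b1 and b2 day 0 sets (adjusted p = 0.0241 without b2). Of 12 genes of head mesenchyme, a region that forms without Hox expression, 2 were lower at day 7. Alx1, a gene of the facial mesenchyme, had 19 and 9.79 CPM at day 0 and 0.00477 at day 7, or 1 count against 2540, a ratio of 0.000389 with an exact interval of 9.83e-06 to 0.00217 that covers counting error only (adjusted p = 0.0059). Dlx3 of the same list was higher at day 4, with 0.018 and 4.08 CPM at day 0 and 30.6 at day 4 (3.89 on the log2 scale, adjusted p = 0.0243), and at 0 counts at day 7, a call that ended without the b2 day 0 set (0.42). The day 4 value was 2.91 without the b1 day 0 set (0.206) and 10.67 without the b2 day 0 set (9.01e-07), and it was not called without either day 3 set (0.172 and 0.106). The 16 fibroblast markers had 13 genes lower at day 7, with a median of -3.39.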

How the data were processed

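RNA of 461 single cells was measured with the Fluidigm C1 protocol. Per the submitters' processing notes, bcl2fastq and RSEM 1.2.22 were used; no aligner, genome build or annotation is given in the sources used here. The deposited tables hold RSEM expected counts and TPM for 31673 genes, of which 31426 have a symbol. Of the expected counts, 9.108% were not whole, and sums were rounded. TPM summed to 994110 to 999272 per cell, as the authors deposited it. The reads carry no molecular identifiers, so the exact intervals (Clopper-Pearson, 95%) and limits of 3 counts cover counting error only.

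Cells were grouped by the day and prefix in their titles. Sets of 5 and 2 cells (prefix b1, days 5 and 7) were left out of the fit. Counts were summed per set and tested with edgeR 4.0.16 in R 4.3.3 (TMM scaling, filterByExpr by day, quasi-likelihood F test, day as the sole term, 2 residual degrees of freedom). Since replication exists at days 0 and 3 alone, other days are assumed to vary like them. The labels do not say whether sets came from separate cultures, so p-values rest on the spread between sets. The prior degrees of freedom were infinite, so that spread came from a trend over all tested genes. A p-value does not measure the spread of its own gene. CPM uses the TMM scaling. Detection means a TPM of at least 1; no doublet caller was run. Because the counts are not stated to use strand, reads of Hox genes and overlapping antisense genes cannot be told apart. Promoters came from RefSeq tables (GRCm38.p6).

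Full statistics are given for members called in any comparison or with at least 5 CPM in both day 0 sets. For other lists, up to 4 called members with the smallest adjusted p and up to 2 uncalled ones with the highest CPM may be named; of these, those at days 1, 4 and 7 were chosen, and other genes named were chosen after their values were seen. Of the listed genes, 1 Hox gene and 2 genes of other lists are not reported here, and all counts, sums and medians leave them out. The members and lists were chosen with earlier results of these data known. Alternatives were DESeq2 1.42.0, upper-quartile factors, no filter, all 10 sets, prefix as a block, thinning to 300000 counts, leaving out the highest cell, leaving out each replicated set, and limma 3.58.1 on log2(TPM + 1) or log2(TPM + 0.1). The steps were run on simulated counts for 22378 genes, of which 200 were changed. For day 7 against day 0, 2.8% of 4-fold and 27.6% of 16-fold changes were recovered. For day 3 against day 0, 11.6% and 41.2% were recovered. Many real changes can therefore go without a call. Python 3.11.15, numpy 2.4.6, pandas 2.3.3, scipy 1.17.1 and matplotlib 3.10.9 were used.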

Additional observations from a re-analysis of the deposited data

Results flagged for a closer look

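Hoxa9 went opposite ways between days 0 and 3 in the 2 prefixes that have both days. In b1 it went from 27.9 to 9.97 CPM, a difference of -1.40 on the log2(CPM + 1) scale, and in b2 from 10.4 to 13.3 CPM, a difference of 0.33. Each is 1 set against 1 set, and the difference between prefixes was not tested.

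Hoxc11, a posterior gene close to 0 in all 8 sets compared, had 22 CPM without TMM scaling in the b1 day 7 set, which lies outside the comparisons, against 0.011 in the higher day 0 set. The value rests on 49 counts from 1 of the 2 cells of that set.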

How the results depend on the processing

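No direction reversed for the 9 Hox changes with a call, and of 124 alternatives for them 62 kept the call and 62 did not. Of 140 alternatives for the 10 uncalled day 7 values of named Hox genes, 8 gave a call and 7 reversed: Hoxa5 to 0.05 with the replicate block and 0.29 without the b1 day 0 set (-1.60 without b2), Hoxa9 to 0.52 without b1 (-0.90 without b2), 0.26 and 0.28 with limma at pseudocounts of 1 and 0.1 and 0.26 with limma and no filter, and Hoxb9 to -0.65 with all 10 sums. Of 355 alternatives for 26 results of other genes, 217 kept the call and 1 reversed, Cyp26b1 at day 7 to 1.74 with all 10 sums, where the 2-cell b1 set joins day 7. Counts of called Hox genes moved as follows. DESeq2 gave 2 at day 3, 5 at day 4, 4 at day 5 and 12 at day 7, beside 1640, 1279, 2205 and 2959 of its 25691 genes. All 10 sums gave 0 at days 4, 5 and 7 and between days 5 and 3, beside 33, 158, 352 and 12 of 22314 genes. Limma on TPM gave 0 in these comparisons with both pseudocounts, except 1 at day 7 with 0.1. Of all 17892 genes it called 0 there, except 325 at day 7 with 0.1. With no filter limma gave 1 at days 4 and 5 each, 3 at day 7 and 1 between days 5 and 3. Thinning gave 0 at day 4, 3 at day 7 and 0 between days 5 and 3, and leaving out the highest cell 1 at day 4 and 3 at day 7. Leaving out a set gave 0 at day 3, 1 to 2 at day 4, 1 at day 5, 1 to 4 at day 7 and 0 to 1 between days 5 and 3. The cause of these moves was not tested. With the prefix as a replicate block, which needs day 4 left out, 0 Hox genes were called in any comparison. Over all 22062 genes this fit called 4 to 422. The prefixes do not pair the sets by the labels. Across 11058 genes the difference between b1 and b2 at day 0 had an r of 0.065 with that at day 3. The share of cells with any Hox TPM above 0 was 100% in the b2 day 0 and day 4 sets, 82.3% at day 5 and 87.7% at day 7, and at a TPM of 5 it was 90.2% in the b1 day 3 set and 52.3% at day 7. The genes called at day 7 numbered 794 higher and 683 lower with edgeR, and in all 2959 with DESeq2, 352 with all 10 sums and 422 with the block. Depth limits the low members: Hox genes under 1 CPM rest on few cells, and at day 4 the lowest depth and the sole b3 set coincide.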

Other observations

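The non-coding genes that lie within the Hox clusters gave 0 edgeR calls among the 9 tested of 11 present in the table, in all 6 comparisons, with 0 to 1 under an unadjusted p of 0.05 and 0 to 1 called by DESeq2. Halr1, which lies beside the 3′ end of HoxA, had 0 CPM in all 5 sets up to day 3, and 1.85 at day 4, 3.22 at day 5 and 1.67 at day 7. These are the days on which Hoxb1 was detected. Hotairm1, transcribed from the 3′ end of HoxA, showed no such pattern and stayed between 0.841 and 1.69 CPM in all 8 sets. Hoxaas2 had 6.99 and 1.69 CPM at day 0 and 0.382 at day 7. Hoxa11os, antisense to Hoxa11, reached 12.2 CPM in the b2 day 3 set and had 1.05 at day 7.

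Of 25 tested genes that flank the clusters, Calcoco2 beside HoxB was the sole gene called by edgeR, higher from day 4 on. Of all genes, 2.07%, 2.56% and 3.55% were higher at days 4, 5 and 7, and 1 call is too few to be set apart from these shares. DESeq2 called 1 gene of the list at days 3 and 4 each, 2 at day 5 and 4 at day 7. Over its 25691 genes it called 1640, 1279, 2205 and 2959 on these days. Calcoco2, an autophagy receptor, had 0.018 and 0.331 CPM at day 0, 0.0913 at day 1, and 0.657 and 0.337 at day 3. It had 3.39 CPM at day 4, 32.9 at day 5 and 167 at day 7. Its later sets rise day by day above all earlier ones, with a log2 fold change of 4.16 ± 0.88 at day 4 (adjusted p = 0.000226) and 9.79 ± 1.06 at day 7 (1.25e-17). Without the b1 day 0 set the values were 3.36 and 8.98, and without the b2 day 0 set 7.49 and 13.11. The 25 tested genes flanking the 4 clusters, Calcoco2 included, had a median of 0.05 at day 7, beside -1.96 for all tested Hox genes. Cbx1, a heterochromatin protein gene beside HoxB, had 61 and 33.5 CPM at day 0 and 91.7 at day 7, and Hnrnpa1, an RNA-binding protein gene beside HoxC, 1334 and 1233 CPM at day 0 and 1046 at day 7.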
